A study of Mus musculus with 8 samples.

Results

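The 2′-5′ oligoadenylate synthetase family was followed in MC38 cells, a mouse colon adenocarcinoma line, through 8 members: Oas1a, Oas1b, Oas1c, Oas1g, Oas2, Oas3, Oasl1 and Oasl2. They were taken by gene symbol from a table of 29079 genes. The rule uses no measured value, but the family was chosen with earlier results of these data known. They were measured in 4 groups of 2 sequencing libraries. The control line, labelled WT, had been through CRISPR with a control guide, and the knockout line, labelled Piezo2_KO and called KO here, through CRISPR with guide Piezo2-gRNA1. Piezo2 is a mechanically gated ion channel. Each line was either not irradiated or given 30 Gy of X-rays as 1 fraction, and RNA was taken 60 h later. The labels state neither whether the KO line is a clone or a pool nor whether a group's libraries come from separate cultures. The p-values therefore cover the spread among libraries alone, and part or all of it may be technical. With 1 control line and 1 knockout line, loss of Piezo2 cannot be told apart from other differences between the lines. The term KO effect below names the difference between these lines.

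Oligoadenylate synthetases bind double-stranded RNA in the cytosol. The active members then join ATP into short 2′-5′ linked chains of adenosine, which serve as a signal of viral infection inside the cell. The genes are classic targets of interferon: receptors signal through JAK kinases to a complex that includes STAT2 and IRF9 and binds a DNA motif called the interferon-stimulated response element (ISRE). In the mouse, Oas1a and Oas1g make the chains, Oas1c is a related copy without that activity, and Oas1b is known for its part in resistance to flaviviruses, which laboratory strains with a shortened form lack. Oas2 and Oas3 carry repeated synthetase units, and Oas3 prefers long double-stranded RNA. Oasl1 and Oasl2 end in ubiquitin-like domains. Oasl1 has no synthetase activity and is known to hold back translation of Irf7, whereas Oasl2 is active.

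All 8 members lie on chromosome 5 of the mouse genome (GRCm38). Oas2, Oas3, Oas1c, Oas1b, Oas1g and Oas1a sit in a cluster that spans chr5:120730333-120921652, and Oasl2 and Oasl1 sit side by side at chr5:114896936-114937915. The annotation lists Oas1b (ENSMUSG00000029605) as a polymorphic pseudogene and the other members as protein coding.

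The promoters of the members are shown because ISRE motifs are known regulatory elements of these genes and the members' levels moved together in the data below. Promoter windows, from 250 bases before to 50 bases after a gene's start, were taken from RefSeq (GRCm38.p6), and 6 of the 8 members matched a window; Oas1b and Oas2 are named only. The ISRE core was searched on both strands as TTTC, any 2 bases and TTTC, which reads GAAA, any 2 bases and GAAA on the other strand. It was present in 4 of these 6 windows, those of Oas1a, Oas1g, Oas1c and Oas3, and in 3.44 percent of all 32851 windows. The windows of Oasl1 and Oasl2 held no such letters. Stretches of the 4 windows follow, each on the gene's own strand (minus for all 4), with the ISRE core matches in capitals.
Oas1a, chr5:120907501-120907575: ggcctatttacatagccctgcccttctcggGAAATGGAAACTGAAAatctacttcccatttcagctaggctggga
Oas1g, chr5:120887589-120887661: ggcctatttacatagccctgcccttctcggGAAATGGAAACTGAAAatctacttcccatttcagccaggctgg
Oas1c, chr5:120812583-120812658: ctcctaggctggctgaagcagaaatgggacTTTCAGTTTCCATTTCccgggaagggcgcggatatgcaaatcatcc
Oas3, chr5:120777695-120777764: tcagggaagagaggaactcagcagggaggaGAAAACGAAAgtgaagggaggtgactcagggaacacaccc

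In Oas1a, Oas1g and Oas1c, 2 overlapping matches formed the capital run. Only 0.225 percent of all windows held 2 or more matches. The Oas1a and Oas1g stretches had 72 of 73 compared bases in common, the ISRE run included. The run of Oas1c, on its own strand, has the same letters as the other strand of the run in Oas1a. Oas1c and Oas1b point away from each other, their annotated starts 121 bases apart, and the run lies 7 to 22 bases before the start of Oas1b. The core of the gamma-activated site, TTCNNNGAA on either strand, was present in the window of Oas1a alone among the 6, against 8.3 percent of all windows. A match describes letters in a window and does not show that a factor binds there.

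The libraries held between 10971004 and 19887180 counted reads. Values below are counts scaled to a total of 1 M per library (CPM), and a count of 0 allows up to 3 reads, or 0.151 to 0.273 CPM depending on the library. Such limits, and the 95 percent exact (Clopper-Pearson) intervals given for folds, cover counting error only. Piezo2 itself, with 0 and 0 reads without irradiation and 3 and 9 after it in WT, and 0 and 1 and then 7 and 12 in KO, was too sparse to check the knockout.

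Summed over the 8 members, the family made up 4.39 and 4.99 CPM in the non-irradiated WT libraries. It reached 31.4 and 29.5 CPM in non-irradiated KO, 163 and 120 CPM in irradiated WT, and 1772 and 1744 CPM in irradiated KO. No group's libraries overlapped with those of another. The ratio of group means was 6.49 for KO against WT without irradiation (5.90 to 7.17 over pairs of libraries) and 12.4 after it (10.7 to 14.7). For irradiation it was 30.2 in WT (24.1 to 37.1) and 57.7 in KO (55.5 to 60.1). In bulk RNA a larger share of cells that express a gene and more RNA per cell cannot be told apart.

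**Figure D1:**
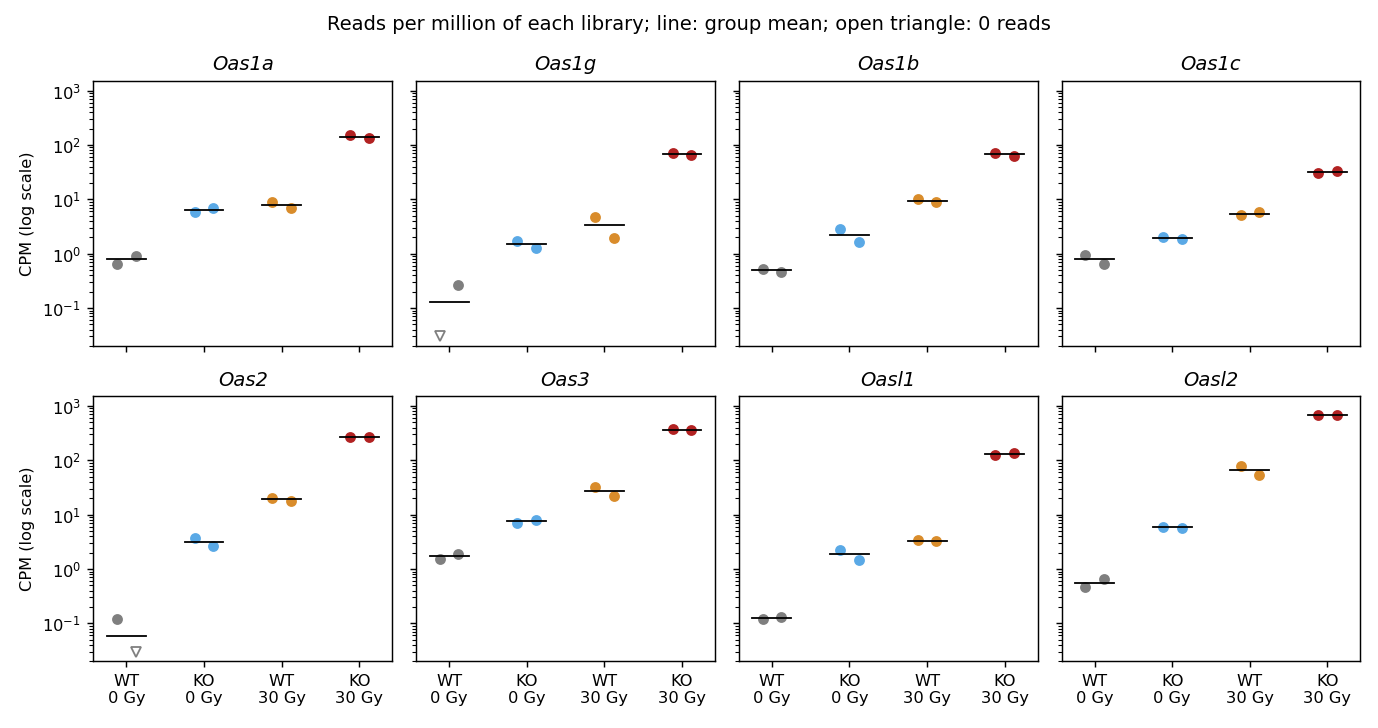
Level of each family member in the 8 libraries, in CPM on a log axis; points are libraries, lines are means of 2 libraries, and open triangles mark 0 reads. For all 8 members, mean levels ran from non-irradiated WT, through non-irradiated KO and irradiated WT, to irradiated KO.

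Mean levels of all 8 members stood in 1 order: non-irradiated WT, non-irradiated KO, irradiated WT, irradiated KO. Between the non-irradiated lines 8 of 8 members did not overlap, against 28.8 percent of tested genes higher in KO without overlap. Non-irradiated KO and irradiated WT were apart for 7 of 8, all but Oas1a, against 39.3 percent. The irradiated lines were apart for 8 of 8, against 30.3 percent. In a comparison of those middle groups that was added after the values were seen, 6 of the 8 members were called higher in irradiated WT, against 23 percent of all tested genes (edgeR quasi-likelihood test with Benjamini-Hochberg adjustment over 14923 genes, called at an adjusted p under 0.05). Oas1a (log2 change 0.23 ± 0.17 SE, edgeR adjusted p = 0.316) and Oas1g (1.11 ± 0.49, edgeR adjusted p = 0.103) were not called. Everywhere below, "called" and "adjusted p" refer to this edgeR test. Log2 changes, from 2 libraries in each group, are given with a standard error (SE) derived from the test's F statistic. Where a group holds only a few reads, this SE can be smaller than the counting error.

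Irradiation was followed by higher levels of the whole family in WT cells. All 8 members were called higher, with log2 changes from 2.68 to 8.04 and a median of 4.36, where 20.4 percent of tested genes were called higher and the median of all genes was 0.03. In KO cells all 8 were again called higher, from 4.0 to 6.83 with a median of 5.54, against 21.1 percent of tested genes and a median of 0.02. Without irradiation, all 8 members were called higher in KO than in WT, by 1.23 to 5.43 with a median of 3.19, against 10.4 percent of tested genes and a median of -0.01. After irradiation all 8 were called higher in KO, by 2.56 to 5.30 with a median of 3.80, against 13.3 percent and a median of -0.01. The KO effect without irradiation shares its WT libraries with the irradiation effect in WT, and the same holds for each pair of comparisons with a group in common.

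A limit applies to the comparisons against non-irradiated WT. The filter on low counts corresponds to 0.623 CPM, and 3 members (Oas1a, Oas1c and Oas3) reached it in both of those libraries. The other 5 entered the test only through the groups where they are high, so that a fall below non-irradiated WT could hardly have been seen for them. All 8 reached that level in both libraries of each of the other 3 groups.

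**Figure D2:**
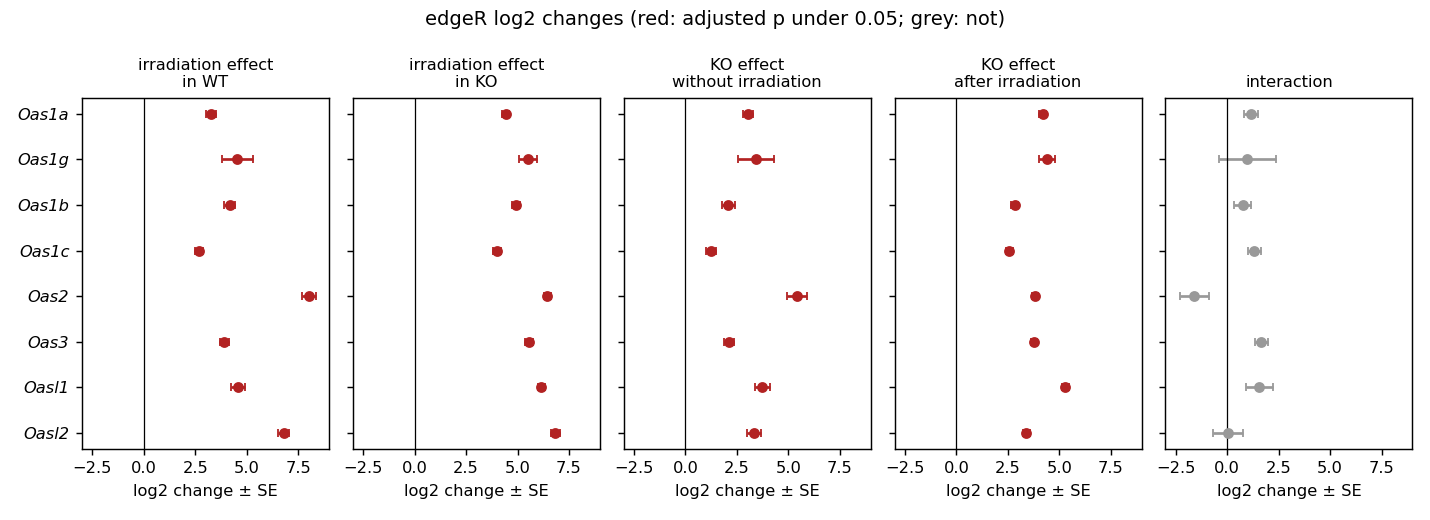
Log2 change with its standard error for each member in the 5 comparisons, from 1 edgeR fit over 8 libraries; red points passed an adjusted p of 0.05. All members lie to the right of 0 in the first 4 panels; in the interaction panel all 8 are grey.

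Among the synthetases that make the chains, Oas1a (ENSMUSG00000052776, chr5:120896256-120907521, minus strand) stood at 0.652 and 0.920 CPM in non-irradiated WT. It had 5.92 and 6.94 CPM in non-irradiated KO, 9.0 and 6.85 CPM in irradiated WT, and 150 and 136 CPM in irradiated KO. KO replicate 2 without irradiation lay within the range of the irradiated WT libraries, and KO replicate 1 lay below both. Oas1a rose by 3.26 ± 0.23 log2 units on irradiation in WT (adjusted p = 6.83e-05) and was higher by 3.04 ± 0.24 in KO without irradiation (adjusted p = 0.000238). Its irradiation effect in KO was 4.42 ± 0.16 (adjusted p = 1.76e-06).

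Oas1g (ENSMUSG00000066861, chr5:120876142-120887613, minus strand) had 0 and 4 reads in non-irradiated WT, or 0 and 0.263 CPM. Its levels were 1.73 and 1.26 CPM in non-irradiated KO, 4.65 and 1.97 CPM in irradiated WT and 72.1 and 64.9 CPM in irradiated KO. It rose on irradiation by 4.55 ± 0.76 in WT (adjusted p = 0.00278) and 5.52 ± 0.43 in KO (adjusted p = 7.2e-05). The WT value was 3.52 without WT_nonIR replicate 1, 8.65 without WT_nonIR replicate 2 and 3.83 without WT_IR replicate 1, and was called each time. The KO effect without irradiation, 3.44 ± 0.87, passed with an adjusted p of 0.0295. That call was lost without WT_nonIR replicate 1 (2.43, adjusted p = 0.132, against 7.55 and an adjusted p of 0.0397 without WT_nonIR replicate 2), without either non-irradiated KO library, 1 at a time (adjusted p = 0.104 and 0.0806), and when only the compared groups entered the fit (adjusted p = 0.07). The KO effect after irradiation was 4.41 ± 0.39 (adjusted p = 0.000232), or 5.13 without WT_IR replicate 1.

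Oas1a and Oas1g are close copies. Of the 50-base windows of Oas1a transcripts, 57.6 percent were also in Oas1g transcripts, and 45.7 percent of Oas1g windows were shared with another gene. The sources used here do not say how the authors' counting treated reads that fit more than 1 gene, so the split between the pair is uncertain. Oas1g took 34.1 and 22.4 percent of the pair's reads in irradiated WT, 22.6 and 15.3 percent in non-irradiated KO, and 32.5 and 32.3 percent in irradiated KO. With the reads of the pair added up before the fit, an alternative chosen after seeing the data, the sum rose on irradiation by 3.55 in WT (adjusted p = 0.00014) and 4.69 in KO (adjusted p = 4.52e-06). The sum was higher in KO by 3.12 without irradiation (adjusted p = 0.000698).

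Oas1b, next to Oas1c in the cluster (chr5:120812635-120824163, plus strand), had 0.534 and 0.460 CPM in non-irradiated WT. It reached 2.83 and 1.66 CPM in non-irradiated KO, 9.96 and 9.06 CPM in irradiated WT and 71.2 and 62.7 CPM in irradiated KO. The 4 groups did not overlap. The irradiation effect was 4.17 ± 0.27 in WT (adjusted p = 4.27e-05) and 4.93 ± 0.21 in KO (adjusted p = 3.41e-06), and the KO effect without irradiation was 2.07 ± 0.32 (adjusted p = 0.00443).

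Oas1c (ENSMUSG00000001166, chr5:120800194-120812514, minus strand) is the copy without synthetase activity. It had 0.949 and 0.657 CPM in non-irradiated WT, 2.01 and 1.86 CPM in non-irradiated KO, 5.09 and 5.75 CPM in irradiated WT, and 30.0 and 33.4 CPM in irradiated KO. Its changes were the smallest of the 8 in each of the 4 comparisons between groups. Its summed reads, scaled to depth, were 2.36-fold higher in KO without irradiation and 6.74-fold higher on irradiation in WT. The KO effect without irradiation, 1.23 ± 0.23 (adjusted p = 0.00985), lost its call without WT_nonIR replicate 2 (0.99, adjusted p = 0.0738) and with only the compared groups in the fit (adjusted p = 0.104). Of its 50-base transcript windows 15.1 percent were shared with another gene. The antisense gene Gm43069 overlaps the exons of Oas1c, but it had at most 19 reads in any library.

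Oas2 (ENSMUSG00000032690, chr5:120730333-120749853, minus strand) was at the edge of detection in non-irradiated WT, with 2 and 0 reads. It had 40 and 52 reads (3.65 and 2.61 CPM) in non-irradiated KO, 275 and 314 reads (20.3 and 18.2 CPM) in irradiated WT, and 4131 and 4666 reads (274 and 269 CPM) in irradiated KO. In WT, summed reads scaled to depth were 307-fold higher after irradiation, with an interval from 84.6 to 2541. In KO the same ratio was 91.1 (74.2 to 113). The fitted changes were 8.04 ± 0.35 in WT (adjusted p = 1.13e-05) and 6.45 ± 0.18 in KO (adjusted p = 7.05e-07). In WT the SE of 0.35 understates the error, as the counting interval from 84.6 to 2541 shows. The KO effect without irradiation was 5.43 ± 0.49 (adjusted p = 0.000425), the largest among the 8 members, and rests on the same 2 reads in WT. Without WT_nonIR replicate 1, which held both reads, the WT irradiation effect was 11.2 and this KO effect 8.60. Without WT_nonIR replicate 2 they were 7.18 and 4.57, and all 4 values were called.

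Oas3 (ENSMUSG00000032661, chr5:120753098-120777661, minus strand) was among the 3 members above the filter level in every group. It had 26 and 29 reads (1.54 and 1.91 CPM) in non-irradiated WT, 7.11 and 7.94 CPM in non-irradiated KO, 32.1 and 22.3 CPM in irradiated WT and 374 and 361 CPM in irradiated KO. It rose by 3.91 ± 0.22 on irradiation in WT (adjusted p = 2.67e-05) and by 5.56 ± 0.18 in KO (adjusted p = 1.19e-06). In KO it was higher by 2.13 ± 0.25 without irradiation (adjusted p = 0.0013) and by 3.78 ± 0.16 after it (adjusted p = 1.19e-05).

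Oasl1 (ENSMUSG00000041827, chr5:114923240-114937915, plus strand) had 2 reads in each non-irradiated WT library, or 0.119 and 0.131 CPM. It had 2.28 and 1.46 CPM in non-irradiated KO, 3.39 and 3.25 CPM in irradiated WT, and 124 and 136 CPM in irradiated KO. After irradiation it differed most between the lines among the 8 members, by 5.30 ± 0.15 (adjusted p = 6.55e-06), and its summed reads were 39.3-fold higher in KO (32.3 to 48.4). The irradiation effect was 4.59 ± 0.33 in WT and 6.15 ± 0.17 in KO (adjusted p = 7.02e-05 and 5.51e-07). In WT its summed reads were 26.6-fold higher after irradiation, with a counting interval from 10.1 to 99.4, which is wider than that SE.

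Oasl2 (ENSMUSG00000029561, chr5:114896936-114912234, plus strand) had the most reads of the family in the irradiated groups. Its levels were 0.474 and 0.657 CPM in non-irradiated WT, 5.92 and 5.73 CPM in non-irradiated KO, 78.3 and 52.9 CPM in irradiated WT and 677 and 681 CPM in irradiated KO. It rose on irradiation by 6.79 ± 0.27 in WT (adjusted p = 8.59e-06) and by 6.83 ± 0.21 in KO (adjusted p = 1.01e-06). Summed reads were 114-fold (72.0 to 193) and 117-fold (101 to 136) higher. The KO effect was 3.34 ± 0.34 without and 3.39 ± 0.17 after irradiation (adjusted p = 0.000726 and 1.91e-05).

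The make-up of the family differed between the groups. Levels of different genes were set side by side as CPM per kb of exon, and each member's share of the family sum on that scale was taken in each library. Oas1a had the largest share in non-irradiated KO, 32.2 and 40.9 percent, and Oasl2 the largest in both irradiated groups, at 29.4 to 33.6 percent in WT and 24.9 to 25.7 percent in KO. In non-irradiated WT, Oasl2 held 5.42 to 6.75 percent and Oas1c 17.9 to 28.7 percent. In irradiated KO, Oas1c held 2.92 to 3.34 percent of the family. The share of Oas3 lay between 10.3 and 17.6 percent in the 8 libraries. Oasl1 held 11.1 to 12.6 percent in irradiated KO and 3.56 to 4.42 percent in irradiated WT. Shares in non-irradiated WT rest on 150 reads over both libraries, and no test was made of any share.

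**Figure D3:**
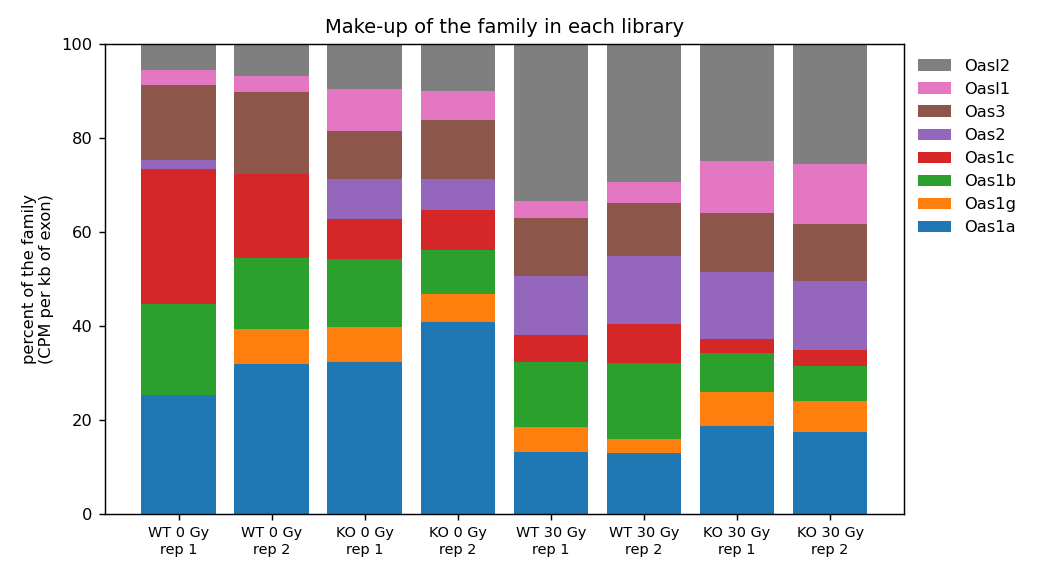
Share of each member in the family's summed level (percent, CPM per kb of exon) in each of the 8 libraries. The Oasl2 segment is between 5.42 and 10 percent of the bar without irradiation and between 24.9 and 33.6 percent after it.

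Whether irradiation acted more strongly in KO than in WT was asked of each member by the interaction, which subtracts the irradiation effect of WT from that of KO. By edgeR 0 of the 8 members were called, against 1.94 percent of tested genes called in either direction. At an unadjusted p under 0.05 there were 3 members, against 12.4 percent of tested genes, and DESeq2 called 1. The estimates ran from -1.59 to 1.65 with a median of 1.06, positive for all members but Oas2 (-1.59 ± 0.71, adjusted p = 0.418). The smallest adjusted p was that of Oas3 (1.65 ± 0.32, adjusted p = 0.0507). Oas1c had 1.32 ± 0.30 (adjusted p = 0.0834), Oas1a 1.16 ± 0.33 (adjusted p = 0.175) and Oasl2 0.04 ± 0.74 (adjusted p = 0.998). With replicate number as a block, 3 members were called, Oas3 (adjusted p = 1.74e-05), Oas1c (adjusted p = 0.0144) and Oas1a (adjusted p = 0.0283), where that fit called 16.7 percent of tested genes. Oas3 was called as well by DESeq2 (adjusted p = 2.53e-05) and without WT_IR replicate 1 or replicate 2 (adjusted p = 0.0086 and 0.0378). For members with a few reads in non-irradiated WT the estimate has a wide error, up to 1.39 for Oas1g.

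Of the related genes, Abce1, Pde12 and the feedback gene Socs3 were called lower after irradiation in both lines. Socs3 changed by -0.79 ± 0.12 in WT and -0.72 ± 0.12 in KO (adjusted p = 0.00166 and 0.00261). Abce1, which encodes a ribosome recycling factor, fell on irradiation by 0.94 ± 0.07 on the log2 scale in WT (adjusted p = 6.13e-05) and fell by 1.19 ± 0.07 in KO (adjusted p = 1.31e-05). Its KO effect without irradiation was -0.04 (adjusted p = 0.706). Pde12, a phosphodiesterase that degrades the chains, fell by 0.63 ± 0.10 in WT (adjusted p = 0.00276). In KO its change was -0.34 ± 0.10, called by edgeR (adjusted p = 0.033) and not by DESeq2 (adjusted p = 0.0919). Of the further Oas1 copies, Oas1d had at most 2 reads and Oas1e at most 4 in any library. Oas1h had 17 and 16 reads in irradiated KO and at most 2 elsewhere, and Oas1f was not analysed here.

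**Figure D4:**
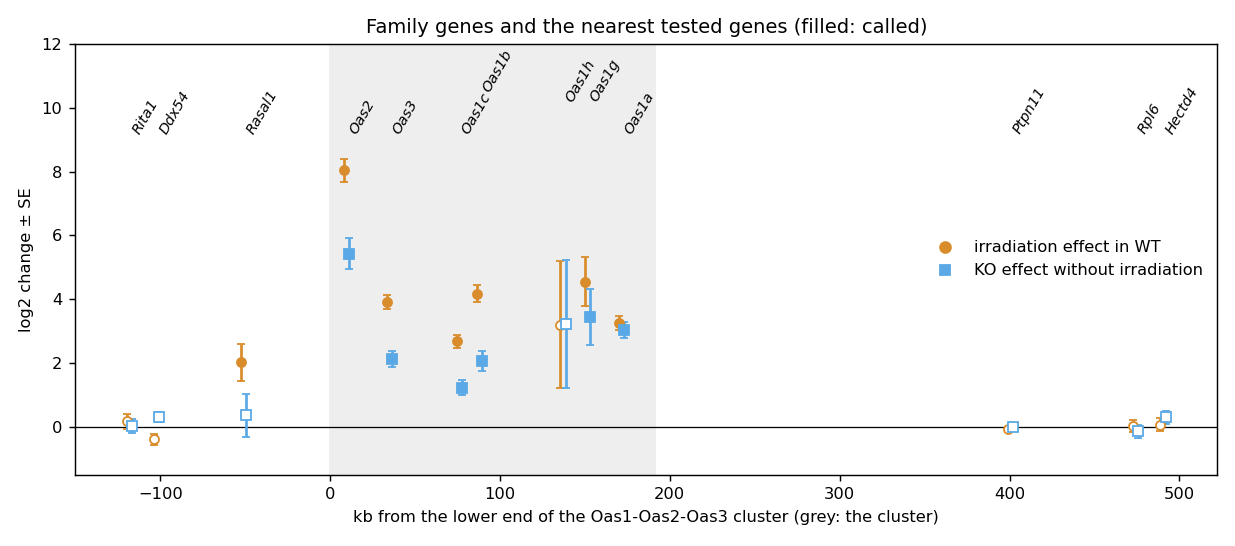
Log2 change with its standard error along the Oas1-Oas2-Oas3 cluster (grey) and at the 3 nearest tested genes on each side, against the distance in kb from the cluster's lower end; filled symbols are called. The 6 members in the cluster are filled for both comparisons and Oas1h is open; among the neighbours Rasal1 alone is filled, for irradiation in WT.

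The genes next to the clusters were examined in the same fit. In either direction, that fit called 38.9 percent of tested genes for irradiation in WT and 39.7 percent in KO. For KO against WT it called 19.9 percent without irradiation and 24.6 percent after it. With replicate number as a block these shares were 60.5, 60.2, 44.9 and 50.4 percent, to be set beside the counts that follow. Around the Oas1-Oas2-Oas3 cluster, 1 of 6 neighbours was called higher on irradiation in WT and 0 lower. In the KO effect without irradiation 0 of 6 were called, with log2 changes from -0.14 to 0.36. With replicate number as a block, 2 and 3 of the 6 were called in these comparisons. On irradiation in KO 1 of the 6 was called higher and 1 lower (Ddx54, -0.54 ± 0.17, adjusted p = 0.0392), and in the KO effect after irradiation 0, or 3 in each with the block. The neighbour that rose was Rasal1, a Ras GTPase activator 50.7 kb from the cluster, by 2.02 ± 0.57 in WT (adjusted p = 0.0262) and 2.85 ± 0.52 in KO (adjusted p = 0.00423). Around Oasl1 and Oasl2, 0 of 6 neighbours were called on irradiation in WT (-0.02 to 0.35) and 0 in the KO effect without irradiation (-0.21 to 0.32), or 1 and 3 with the block. On irradiation in KO 1 of these 6 was called higher (1500011B03Rik, 0.74 ± 0.21, adjusted p = 0.0277), or 3 with the block, and in the KO effect after irradiation 2, or 5 with the block. Ankrd13a (0.36) and 2210016L21Rik (0.34) were the ones called in the latter, where Oasl1 and Oasl2 differed by 5.30 and 3.39. Gm43068, an unreviewed transcript on the opposite strand within Oas2, had 5 and 3 reads in irradiated WT, 26 and 32 in irradiated KO and 0 in the non-irradiated libraries. It overlaps 0 exon bases of Oas2. Without a stated strand setting, the strand that its reads came from cannot be told.

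A list of 34 related genes was counted beside the family, and 28 of them passed the filter. In WT 15 of the 28 were called higher on irradiation and 3 lower, with a median of 0.96, against 20.4 and 18.4 percent of tested genes. In KO 20 were called higher and 3 lower, with a median of 2.33, against 21.1 and 18.6 percent. In the KO effect without irradiation 9 were called higher and 6 lower, with a median of 0.10, against 10.4 and 9.49 percent. After irradiation 19 were called higher in KO and 5 lower, against 13.3 and 11.4 percent. Ifnb1, Ifna4 and Oas1h count among the 20 and among the 19, and they enter the medians. They passed the filter only through irradiated KO, where they are high, so these calls could hardly have come out another way. In the interaction 7 were called higher and 0 lower, against 1.37 and 0.57 percent, or 13 and 3 with the block, against 16.7 percent in either direction. The family's median of 3.19 in the KO effect without irradiation stood beside a median of 0.10 for the list, which also holds receptors and kinases. A rise of this kind was not particular to the family. Among the 9 list genes called higher there were Zbp1 (3.24), Usp18 (2.40), Irf7 (2.27) and Dhx58 (1.29), while 6 were called lower. Zbp1 and Usp18 lay below the filter level in non-irradiated WT, so a fall below that group could hardly have been seen for them. Both also count among the 15 called higher on irradiation in WT.

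Interferon genes themselves had few reads. Ifnb1 and Ifna4 passed the filter on low counts only through irradiated KO, where they are high, so for them a test against that group could hardly have come out another way. Ifnb1, which encodes interferon beta, had 1 and 0 reads without irradiation and 4 and 4 after it in WT. In KO it had 1 and 0 reads without irradiation and 129 and 118 after it. It rose on irradiation in KO by 7.51 ± 0.74 (adjusted p = 0.000232), and irradiated KO exceeded irradiated WT by 4.85 ± 0.57 (adjusted p = 0.000856). In WT the irradiation change was not called (2.73 ± 1.00, adjusted p = 0.0636, or 0.0421 with replicate number as a block). Between the non-irradiated lines, which differed in all 8 synthetases, Ifnb1 had 1 read in each pair of libraries. Ifna4, an interferon alpha gene, had 23 and 16 reads in irradiated KO and 0 in the other 6 libraries. Its summed reads were at least 12.4-fold higher than in non-irradiated KO, set against a floor of 3 reads over the group. The change was called by edgeR (adjusted p = 0.0134) and not by DESeq2 (adjusted p = 0.309).

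None of the 4 receptor genes in the list (Ifnar1, Ifnar2, Ifngr1 and Ifngr2) was called higher in KO than in WT, without irradiation or after it. Of all tested genes 10.4 and 13.3 percent were called higher in these comparisons, so a count of 0 among 4 genes is near that share. Ifnar1, a chain of the receptor for interferons alpha and beta, was lower in KO by -0.29 ± 0.07 on the log2 scale without irradiation (adjusted p = 0.02) and by -0.54 ± 0.07 after it (adjusted p = 0.00107). Ifngr2, a chain of the interferon gamma receptor, was lower in KO by -1.36 ± 0.09 without irradiation (adjusted p = 0.000116). In WT Ifngr2 rose on irradiation by 0.67 ± 0.08 (adjusted p = 0.000754).

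Among the transcription factors, Stat2 rose on irradiation by 2.16 ± 0.08 in WT (adjusted p = 8.59e-06) and by 3.68 ± 0.09 in KO (adjusted p = 4.54e-07), and its interaction of 1.53 ± 0.11 was called (adjusted p = 0.00117). Stat2 and Irf9, which belong to the complex that binds the ISRE, were higher in KO without irradiation by 0.67 ± 0.08 and 0.82 ± 0.12 (adjusted p = 0.0019 and 0.00369). Irf7, which drives interferon alpha genes, was higher by 2.27 ± 0.31 (adjusted p = 0.0026), whereas Irf1 was lower by -0.50 ± 0.10 (adjusted p = 0.0131). Feedback genes parted as well: Usp18, which dampens signalling at the receptor, was higher in KO by 2.40 ± 0.66 (adjusted p = 0.0404), and Socs1, an inhibitor of JAK kinases, was lower by -1.51 ± 0.17 (adjusted p = 0.00121). The Usp18 value rests on a total of 8 reads over both WT libraries without irradiation, below the filter level. Its summed reads were 5.46-fold higher in KO, with a counting interval from 2.53 to 13.5. A fall of Usp18 below that group could hardly have been seen.

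Other RNA binders and Cgas were compared as a group of 7. The group held the RNA-binding kinase Eif2ak2, the RNA editor Adar and the helicases Ifih1, Ddx58 and Dhx58. It also held the Z-form nucleic acid binder Zbp1 and Cgas, a DNA sensor related to the synthetases. All but Cgas were called higher on irradiation in WT and all 7 in KO, against 20.4 and 21.1 percent of tested genes. In the KO effect without irradiation 4 were called higher, with a median of 0.43: Zbp1 (3.24 ± 0.47), Dhx58 (1.29 ± 0.21), Ifih1 (0.84 ± 0.11) and Ddx58 (0.43 ± 0.08). The Zbp1 value rests on a total of 4 reads over both WT libraries without irradiation, below the filter level. Its summed reads were 9.88-fold higher in KO, with a counting interval from 3.56 to 38.1. A fall of Zbp1 below that group, here or on irradiation in WT, could hardly have been seen. Eif2ak2 (0.18, adjusted p = 0.178), Adar (0.10, adjusted p = 0.478) and Cgas (0.43 ± 0.22, adjusted p = 0.212) were not called. With replicate number as a block Eif2ak2 was called (adjusted p = 0.00796), as was Cgas (adjusted p = 0.0413), where that fit called 21.4 percent of tested genes higher. In the interaction 4 of the 7 were called, Ifih1 (2.08 ± 0.14), Eif2ak2 (1.67 ± 0.12), Adar (1.37 ± 0.12) and Ddx58 (1.21 ± 0.11), where 1.37 percent of tested genes were called higher. With the block 6 of the 7 were called higher, against 8.15 percent of tested genes.

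**Figure D5:**
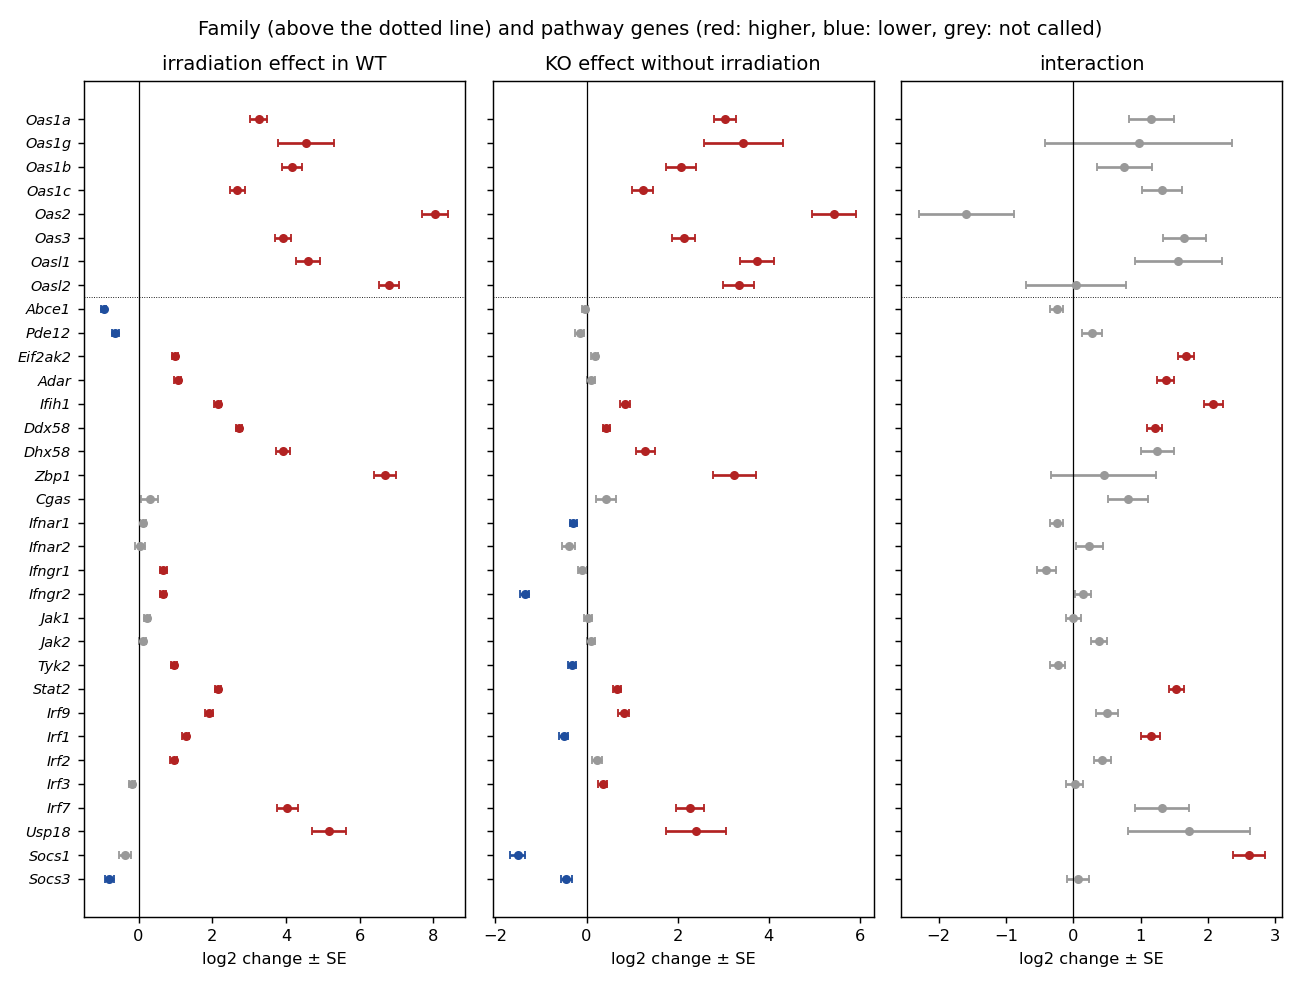
Log2 change with its standard error for the 8 members (above the dotted line) and related genes in 3 comparisons; red is called higher, blue lower, grey not called. In the middle panel the members lie between 1.23 and 5.43 and Zbp1 lies at 3.24, while Eif2ak2 and Adar lie at 0.18 and 0.10. In the right panel Eif2ak2 and Adar are red and the members grey.

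The genes whose levels correlated best with the family's were named by their Pearson correlation with the members' mean log2(CPM + 1) over the 8 libraries. The closest outside the family were Sp100 (0.9978), Ifih1 (0.9974), Ifit1 (0.9973), Lipa (0.9969) and AU020206 (0.9969). The members' own correlations with that mean ran from 0.9823 to 0.9990. The points share groups of 2 libraries. With 0.1 in place of 1 inside the logarithm, 1 of the 5 names, Ifit1, remained.

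The labels call MC38 an epithelial line. Of the epithelial markers, Cdh1 had 526 to 1365 reads, Krt8 at most 20, Krt19 at most 28, Krt18 and Cldn4 at most 2 and Cldn7 at most 3, and Epcam was not analysed here. The summed level of 12 macrophage markers stood in the family's group order, at 9.53 to 9.79 CPM in non-irradiated WT and 18.0 to 19.4 in non-irradiated KO. It was 46.8 to 47.1 CPM in irradiated WT and 73.3 to 83.3 CPM in irradiated KO. Cd68 and Cd14 held most of these reads, with 945 and 266 in irradiated KO replicate 1, where no other marker had more than 13. Of the 12, C1qa, C1qb, Tyrobp, Adgre1 and Itgam had at most 2 reads in any library. The 5 tested were all called higher on irradiation in KO, against 21.1 percent of tested genes: Ptprc (log2 change 5.67), Cd68 (2.95), Lyz2 (3.37), Ctss (6.70) and Cd14 (0.61). DESeq2 did not call Lyz2 (adjusted p = 0.0943) or Cd14 (adjusted p = 0.0528) there. Ptprc, Lyz2 and Ctss had at most 2 reads in any non-irradiated library. They passed the filter only through irradiated libraries, so a fall on irradiation could hardly have been seen for them. Ptprc (4.17), Cd68 (3.32) and Lyz2 (3.83) were also called in WT, Lyz2 again not by DESeq2 (adjusted p = 0.0884), against 20.4 percent of tested genes. Cd68 and Cd14 were called higher in KO both without irradiation (1.04 and 0.94) and after it (0.67 and 1.25), against 10.4 and 13.3 percent. Ptprc, the pan-leukocyte marker, had at most 20 reads in any library. Between the irradiated lines it stood against the family's order, with 20 and 20 reads in WT and 6 and 7 in KO. That change was -1.68 ± 0.69 (adjusted p = 0.131, or 0.0226 with replicate number as a block). The sum of the fibroblast markers stood in the same group order without overlap, from 1122 to 1238 CPM in non-irradiated WT to 2627 to 2946 CPM in irradiated KO. The middle groups had 1553 to 1651 and 1664 to 1843 CPM. Col1a2 and Col3a1 made up most of it, with 19383 and 15590 reads in irradiated KO replicate 1. On irradiation in KO, 5 of the 6 tested were called higher, against 21.1 percent of tested genes. Pdgfra was called lower there (-0.32 ± 0.08, adjusted p = 0.014). Lum, Thy1 and Fap had at most 1, 5 and 12 reads. Endothelial markers summed to 2.96 to 3.08 CPM in non-irradiated WT, 7.89 to 9.02 in non-irradiated KO, 14.0 to 19.2 in irradiated WT and 13.6 to 15.6 in irradiated KO. T and NK cell markers summed to at most 0.639 CPM in any library. The part of these genes' cells in the family's levels was not tested.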

How the data were processed

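The authors deposited a table of raw counts, whole numbers that had not been normalized, for 8 RNA sequencing libraries and genes named by Ensembl ID. The submitters' processing notes name HISAT2, HISAT, HTSeq and DESeq2, with no version, and the build mm10. The sources used here do not give the annotation release, the strand setting or the treatment of reads that map to several places. No column of the table was left out.

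Counts were tested in R 4.3.3 with edgeR 4.0.16: genes kept by filterByExpr (minimum count 10, minimum total 15; 14923 of 29079), TMM scaling (factors 0.975 to 1.024), 1 coefficient per group over all 8 libraries with 4 residual degrees of freedom, the two-sided quasi-likelihood F test, and Benjamini-Hochberg adjustment over all tested genes, called under 0.05. Standard errors come from the F statistic. The script was tested on simulated data. Between 99.86 and 99.93 percent of counts lay in tested genes. Comparisons were irradiation within each line, KO against WT within each dose, and the interaction; irradiated WT against non-irradiated KO was added after seeing the values. Alternatives were DESeq2 1.42.0, its size factors or library totals in edgeR, other filters, only the compared groups, replicate number as a block, and each library left out.

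Replicate numbers come from the labels, which do not say what they mark. Deviations from the group means correlated between same-numbered libraries of different groups at 0.56 to 0.61 over genes, so the blocked fit is given where it changes a call.

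The members and gene lists were chosen with earlier results of these data known. Named were all 8 members, genes from the related lists, the 3 nearest tested genes on each side of both clusters, the 5 most correlated genes and Piezo2. Some genes are not reported here and were left out of the list counts. Protein sequences were not used here, so shared 50-base transcript windows stand in for protein identity. Positions are 1-based on GRCm38 (mm10).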

Additional observations from a re-analysis of the deposited data

Results flagged for a closer look

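The irradiation effect was larger in KO than in WT, by the edgeR test of the interaction, for the sensors of foreign RNA Eif2ak2 by 1.67 log2 units, Ifih1 by 2.08 and Ddx58 by 1.21 and for the RNA editor Adar by 1.37 (edgeR adjusted p from 0.000968 to 0.00223). The interaction was also called for the signalling genes Stat2 (1.53), Irf1 (1.15) and Socs1 (2.61), with edgeR adjusted p from 0.00117 to 0.00661.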

How the results depend on the processing

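In the 4 comparisons other than the interaction, the changes of the 8 members kept their direction in 488 of 488 values over the alternatives and their call in 482; the 6 lost calls, of Oas1c and Oas1g in the KO effect without irradiation, are given in the report. The replicate block called 8 of 8 members in each of these comparisons, as the main fit did, and changed no other member's call than those given. In the interaction, 0 members were called in the main fit, 1 by DESeq2, 2 with no count filter (Oas1c, adjusted p = 0.0464, and Oas3, adjusted p = 1.07e-08), 3 with the replicate block, and 0 to 1 when a library was left out. With a library left out, its estimate ran from -3.13 to 1.99 for Oas1g (negative without WT_nonIR replicate 2) and from -0.24 to 0.35 for Oasl2 (negative without WT_IR replicate 2, and at -0.19 without WT_nonIR replicate 2), none of them called; the cause was not tested. The family's mean summed level in irradiated KO was 1758 CPM and 1737 CPM with TMM scaling. Over the whole table, the genes called higher and lower in the KO effect without irradiation numbered 1555 and 1416, with the block 3197 and 3504, and with a library left out as few as 788 and 676. In the KO effect after irradiation they were 1980 and 1698, with the block 3761 and 3755, and as few as 1100 and 792. For irradiation, the block moved the lower counts from 2751 to 4465 in WT and from 2771 to 4417 in KO, and a left-out library moved the counts in KO to as few as 2072 higher and 1832 lower and the lower count in WT to 1812. In the interaction the counts were 205 and 85, with the block 1216 and 1276, with no count filter 359 and 219, and as few as 99 and 18 with a library left out. With only the compared groups in the fit, 831 genes were lower in the KO effect without irradiation. Reads in non-irradiated WT limit the folds of Oas1g, Oas2 and Oasl1, with at most 4 reads in a library.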
